A study of Mus musculus with 6 samples.

Results

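Splicing factors remove introns from pre-mRNA, and the 52 genes described here encode SR proteins, hnRNP proteins, the SF3a and SF3b complexes and the proteins of the small nuclear ribonucleoproteins (snRNPs). They are every row, of 24062 in the deposited expression table, whose symbol begins with Srsf and a digit, with Hnrnp, with Sf3a or Sf3b and a digit, or with Snrp. That rule gave 11 Srsf genes, 20 Hnrnp genes, 9 Sf3 genes and 12 Snrp genes, and the GENCODE annotation of the mouse genome lists all 52 as protein coding. The rule reads only the symbol, but it was set with earlier results of these data known. Snrpn, the neuronal relative of Snrpb, had 0 reads in every library, and the other 51 genes passed the filter on low values (a mean of at least 0.25 counts per 1000000 reads, CPM) and were tested.

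The RNA came from mouse hematopoietic stem cells (HSC), which renew the blood lineages, compared between 3 control and 3 CDKO libraries. Control mice had floxed Nr4a1 alleles on an Nr4a3-null background (Nr4a1 fl/fl; Nr4a3-/-), and the CDKO mice had these alleles together with a construct labelled Rosa26-ERt2. As background, such a construct at the widely active Rosa26 locus supplies a Cre recombinase that tamoxifen switches on and that then excises floxed sequence. All mice were given tamoxifen at 120 mg per kg on 4 consecutive days, the cells were sorted on day 5, and each library was 1 pool of 3 to 5 mice. Neither group is wild type, since both lack Nr4a3. The controls carry no Cre, so Cre activity and loss of Nr4a1 cannot be told apart. The labels give no batch, age or sort markers, and p-values here measure the spread between pools.

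An intron is removed by the spliceosome, which is assembled on each pre-mRNA from the U1, U2, U4, U5 and U6 snRNPs. A ring of Sm proteins (Snrpb, Snrpd1, Snrpd2, Snrpd3, Snrpe, Snrpf and Snrpg) forms on the snRNA of all of these except U6, and each particle adds its own proteins, such as Snrpa and Snrpc on U1, Snrpa1 and Snrpb2 on U2, and the SF3a and SF3b complexes that hold U2 at the branch point. SR proteins bind exonic enhancers and mostly favour inclusion of the exon, whereas hnRNP proteins coat nascent RNA and often repress nearby splice sites. In blood stem cells, SF3B1 and SRSF2 are among the genes most often mutated in human myelodysplastic syndromes.

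The libraries held 32863805 to 42772261 recovered reads, so 3 counts correspond to 0.0701 to 0.0913 CPM. Nr4a1 measured 15.2, 13.4 and 12.9 CPM in the control pools and 8.52, 9.76 and 9.12 CPM in the CDKO pools (log2 difference -0.55, SE 0.12, limma adjusted p = 0.00205). These gene-level counts do not resolve the floxed part of Nr4a1, and Nr4a3 had 0 reads in all 6 pools. All 8 HSC markers, among them Kit, Procr and Mecom, were detected, with a summed level of 4323 to 4484 CPM in control and 3959 to 4126 CPM in CDKO pools. These markers did not move alike. In CDKO pools 3 were higher (Ly6a, Slamf1 and Procr), 3 lower (Kit, Mecom and Hlf) and 2 not called. Marker levels of other cells moved with genotype. The neutrophil list fell in 9 of 10 genes, from 927 to 1205 to 55.5 to 199.9 CPM in sum, with CDKO pool 3 the highest of its group. Basophil and mast cell markers fell in 5 of 6 genes (689 to 729 to 455 to 479 CPM), and erythroid markers in 5 of 7 (259.9 to 276 to 103 to 112 CPM). Megakaryocyte markers rose in 4 of 5 genes (386 to 409 to 524 to 538 CPM) and proliferation genes in 7 of 8 (1602 to 1759 to 2058 to 2284 CPM). Of 6 B and T cell markers, Cd3e and Rag1 had 0 reads in every pool, Il7r had reads in control pool 2 only, and the sum was 6.499 to 7.75 CPM in control and 1.08 to 1.47 CPM in CDKO pools. The part of these markers in the results below was not tested, and in bulk RNA fewer cells of a type and less RNA per cell cannot be told apart.

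Differences between the genotypes among the splicing factor genes were frequent and small. Of the 51 tested genes, 23 were higher and 11 lower in CDKO pools at a Benjamini-Hochberg adjusted p below 0.05 (limma on log2(CPM + 1), two-sided), which is 66.7%. Across all 13731 tested genes the same rule called 66.3%, with 31.1% higher and 35.2% lower, so the share called among the splicing factors lay near the background. The sizes differed more: the median size of the log2 difference, sign ignored, was 0.21 for the 51 genes and 0.34 for all tested genes. Only Hnrnph3 and Srsf12 differed by at least 1.5-fold on the log2(CPM + 1) scale, 3.92% of the tested members, against 29.1% of all tested genes. Small sizes were not particular to the members. In the 6 lists of other splicing genes described below, the median size was 0.19 and 3.94% of tested genes differed by at least 1.5-fold. All tested genes were not matched to the members in level, so the contrast in size cannot be set apart from level. The signed median was 0.10 for the members and -0.02 for all genes. In 25 genes every CDKO pool lay above every control pool and in 10 every CDKO pool lay below, where the shares over all genes were 33.5% and 37.2% (70.7% in either direction). The authors' deposited table, made with DESeq2, calls 38 of these genes, 27 higher and 11 lower in CDKO, and 34 of them were called here too.

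**Figure D1:**
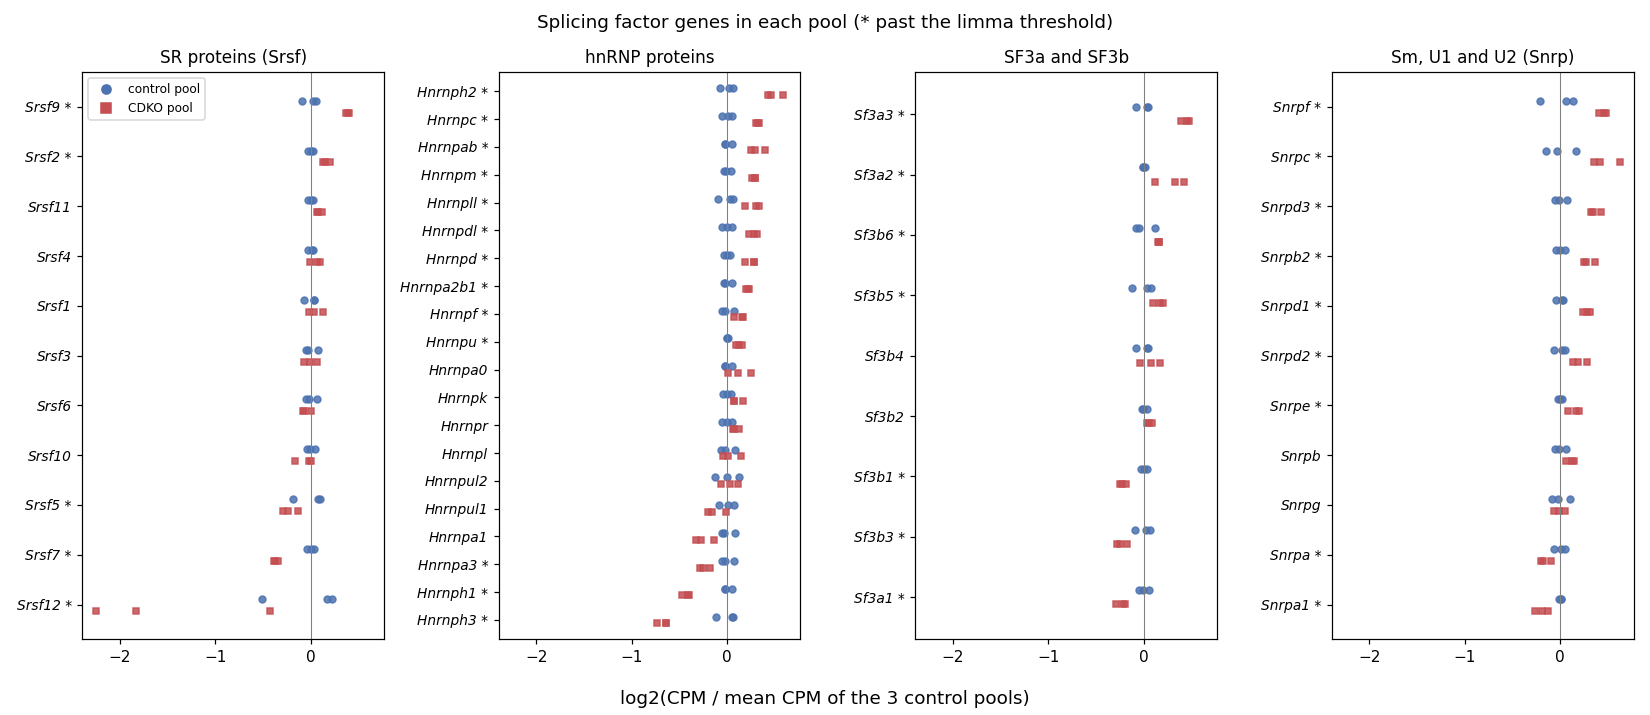
Each row is 1 tested splicing factor gene, each point is 1 pool, and the horizontal axis is the log2 ratio of its CPM to the mean of the 3 control pools, with control pools as blue circles and CDKO pools as red squares. Most CDKO points lie within 0.5 of the control mean, Hnrnph3 and Srsf12 lie farthest to the left, and asterisks mark the 34 genes past the limma threshold.

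**Figure D2:**
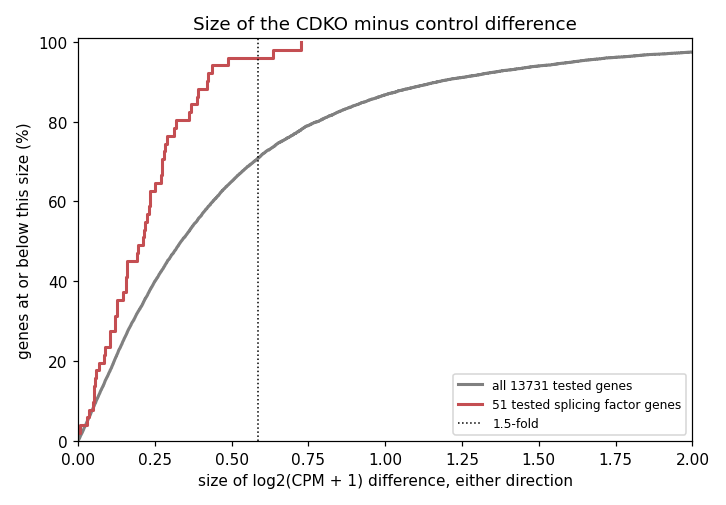
The curves give the percentage of genes (vertical axis) whose log2(CPM + 1) difference is at or below the size on the horizontal axis, for the 51 tested splicing factor genes in red and all 13731 tested genes in grey, with 1.5-fold as a dotted line. The red curve lies above the grey one from about 0.05 on, and its median is 0.21 against 0.34.

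Summed over all 52 genes, the controls gave 12310.4, 12274.2 and 12349.9 CPM and the CDKO pools 13041.7, 12744.7 and 13045.3 CPM. The totals of the 2 genotypes did not overlap, and the CDKO mean was 5.14% higher. The 4 families did not contribute alike. The Hnrnp sum was 11.6% higher (5853 to 5898 CPM in control and 6442 to 6625 CPM in CDKO pools) and the Snrp sum 9.13% higher (991 to 1051 and 1110.4 to 1126 CPM). The Sf3 sum fell by 3.96% (2133 to 2218 and 2068 to 2100.4 CPM), with no overlap between groups. For the Srsf genes the sums overlapped (3145 to 3295 and 3124 to 3209 CPM), and the CDKO mean differed by -1.71%. These sums are weighted by the most abundant genes, and they were not tested.

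Promoter sequence was available in the RefSeq table (GRCm38.p6, 250 bases before to 50 after each start) for 46 of the 52 genes, in 63 windows. These windows had a median GC content of 61% and a median CpG ratio (observed over expected) of 0.92, against 52.7% and 0.38 over all 32851 windows. Motifs were searched as exact letters on both strands, and a match is a description of the letters and not evidence of a bound site. The set of all windows covers 27025 genes, whether tested here or not. It was not matched to the members in expression or CpG content, so differences in motif share cannot be set apart from these. CCGGAAGT, a sequence recognised by ETS factors, was in 17.5% of the members' windows and 3.89% of all windows. It lay in 9 genes, of which 4 were higher, 2 lower and 3 not called. AAAGGTCA, the monomer site of the NR4A receptors (NBRE), was in 3.17% of the members' windows (2 windows, of 2 genes) and 1.51% of all. TTGCGCAA, a palindrome that C/EBP factors bind, was in 3.17% and 0.183%. The former share is 2 windows that both belong to 1 gene, Hnrnpa2b1. The core of the interferon-stimulated response element was in no member window and in 3.44% of all windows. CACGTG (E-box) stood in 11.1% and 7.15%, CCAAT in 44.4% and 37.4%, the NRF1 palindrome in 1.59% and 0.971%, and AAGATGGCG (YY1) in 1.59% and 1.40%.

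The stretches below, 30 bases each and read 5′ to 3′ along the gene's own strand, hold the NBRE or C/EBP letters that match factors named in the study's title, and the ETS letters of SF3a subunits that moved in opposite directions. Capitals mark the motif, which appears as its reverse complement in Sf3b3 and Sf3a3. The Sf3b3 stretch lies at chr8:110846977-110847006 on the minus strand, and its capitals begin 192 bases before the start site. The Snrpf stretch lies at chr10:93589658-93589687 on the minus strand, with capitals from 18 bases before its start. That of Hnrnpa2b1 lies at chr6:51470014-51470043 on the minus strand, with capitals from 138 bases before the start. In Sf3a1 the stretch is at chr11:4160336-4160365 on the plus strand, with capitals from 7 bases before the start. In Sf3a3 it is at chr4:124714759-124714788 on the plus strand, with capitals from 91 bases before a start.
Sf3b3: cgttggcgcggTGACCTTTggggctgccca
Snrpf: ggcgtgaggtgAAAGGTCAggccgcttttg
Hnrnpa2b1: acggaacacagTTGCGCAAgtgatgtaaag
Sf3a1: agagggcgggaCCGGAAGTgctcccgcggc
Sf3a3: tcccccaagacACTTCCGGgacacgcggaa
Of the 2 genes with NBRE letters, Sf3b3 was lower and Snrpf higher in CDKO pools. The ETS pair was shown because Sf3a1 fell and Sf3a3 rose, so their directions are no result about the ETS letters.

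Among the Srsf genes, 2 rose, 3 fell and 6 did not pass the test, so 45.5% were called, beside 66.3% of all tested genes. Srsf7 (on mouse GRCm38 at chr17:80200080-80207307), an SR protein with a zinc knuckle that also acts in mRNA export and polyadenylation site choice, measured 591, 611 and 624 CPM in the control pools and 479.7, 469.6 and 466 CPM in the CDKO pools. Every CDKO pool lay below every control pool, and the mean fell by 22.5% (log2 difference -0.37, SE 0.04, limma adjusted p = 9.48e-06). Its closest relative Srsf3, the smallest SR protein, stood at 235, 218 and 216 CPM in control and 233, 221 and 212 CPM in CDKO pools. The Srsf3 values overlapped (log2 difference -0.00, SE 0.05, limma adjusted p = 0.973), and the sign of so small a difference turned under other scalings. The ratio of Srsf7 to Srsf3 was 2.74 ± 0.197 (SD, n = 3) in control and 2.12 ± 0.0713 in CDKO pools.

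Srsf9 (chr5:115327177-115333080), which like Srsf1 has a second, divergent RNA recognition motif, was 121, 111 and 123 CPM in control and 156, 153 and 155 CPM in CDKO pools. The CDKO pools were higher throughout and within 3 CPM of each other (log2 difference 0.39, SE 0.05, limma adjusted p = 4.24e-05). Srsf2 (chr11:116849901-116853094), the exonic enhancer factor mutated in human myeloid disease, had the highest level per length of the Srsf genes, 314 CPM per kb of transcript in control pools. Its libraries gave 586, 596 and 605 CPM in control and 659, 651 and 688 CPM in CDKO pools, again without overlap (log2 difference 0.16, SE 0.04, limma adjusted p = 0.00345). Srsf2 and Srsf7 had nearly equal CPM in control pools, with a ratio of 0.978 ± 0.0108 (SD, n = 3). In CDKO pools that ratio was 1.41 ± 0.0551, as one gene rose and the other fell.

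The other falls among the Srsf genes were less certain. Srsf5, an SR protein induced early in growth responses, was 296, 359.99 and 354 CPM in control and 276, 285 and 306 CPM in CDKO pools, where control pool 1 lay below CDKO pool 3 (log2 difference -0.22, SE 0.07, limma adjusted p = 0.0174). Srsf12, an SR-related gene of low level, was 2.20, 1.32 and 2.13 CPM in control and 0.396, 0.530 and 1.40 CPM in CDKO pools, where CDKO pool 3 lay above control pool 2 (log2 difference -0.72, SE 0.22, limma adjusted p = 0.0122). The Srsf5 call was lost without control pool 2 or 3 or CDKO pool 1 or 2 (limma adjusted p 0.0527 to 0.0923) and with no filter (0.0597), and the Srsf12 call without control pool 3 or CDKO pool 1 (limma adjusted p 0.0502 to 0.0529) and under quantile normalization (0.0566). On recovered reads, which no pseudocount dampens, the Srsf12 log2 difference was -1.25 by edgeR (adjusted p = 0.066) and -1.26 by DESeq2 (adjusted p = 0.0261), and with a pseudocount of 5 CPM it was -0.25 by limma (adjusted p = 0.0122). Srsf1, Srsf4, Srsf6, Srsf10 and Srsf11 did not pass, with log2 differences from -0.06 to 0.09. For Srsf11 every CDKO pool lay above the controls, and the limma adjusted p was 0.0631. Srsf11 passed with TMM scaling (limma adjusted p = 0.0336), edgeR (0.033) and DESeq2 (0.0033), and Srsf1 after the correction for GC and length (log2 difference 0.12, limma adjusted p = 0.0324).

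The Hnrnp genes gave 10 rises, 3 falls and 7 genes that did not pass, 65% called, beside 66.3% of all tested genes. The F/H group, whose proteins bind runs of G, held the family's largest rise and its largest falls on the log2 scale. Hnrnph1 (chr11:50376990-50386528) was 266, 279 and 265 CPM in control and 205, 204 and 194 CPM in CDKO pools. All CDKO values lay below all control values, a fall of 25.6% in the mean (log2 difference -0.42, SE 0.04, limma adjusted p = 7.75e-06). Hnrnph3 (chr10:63014664-63024217), a shorter relative, was 21.6, 24.1 and 24.4 CPM in control and 15.03, 14.1 and 14.9 CPM in CDKO pools. It too separated without overlap and fell by 37.2% (log2 difference -0.63, SE 0.10, limma adjusted p = 0.0002). Hnrnph2 (chrX:134601179-134607060), an X-linked gene close in sequence to Hnrnph1, went the other way, from 102, 109 and 112 CPM in control to 162, 145 and 148 CPM in CDKO pools. The lowest CDKO pool stood well above the highest control pool, and the mean was 40.7% higher (log2 difference 0.49, SE 0.06, limma adjusted p = 2.04e-05). Hnrnpf, the remaining gene of the group, was 256, 234 and 240.1 CPM in control and 272, 255 and 270.04 CPM in CDKO pools, with CDKO pool 2 just below control pool 1 (log2 difference 0.13, SE 0.05, limma adjusted p = 0.0314). That call was lost without control pool 2 or 3 or CDKO pool 1 or 3 (limma adjusted p 0.0818 to 0.124) and under quantile normalization (0.0634).

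**Figure D3:**
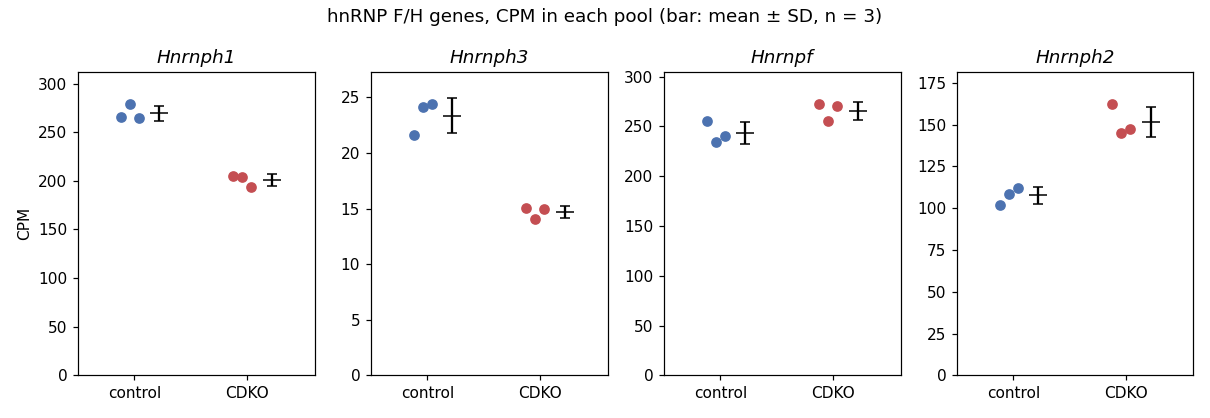
CPM (vertical axes, each from 0 and with its own scale) of the 4 hnRNP F/H genes in the 3 control and 3 CDKO pools, with a bar for the mean and SD of each group. Hnrnph1 and Hnrnph3 lie lower and Hnrnph2 higher in every CDKO pool, and the Hnrnpf pools overlap.

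The summed level of the F/H group stayed within 641 to 646 CPM in control and 618 to 654 CPM in CDKO pools, ranges that overlap, while its makeup shifted. The ratio of Hnrnph2 to Hnrnph1 CPM was 0.399 ± 0.0209 (SD, n = 3) in control and 0.755 ± 0.0402 in CDKO pools. Its separation between the genotypes follows from the opposite differences of these genes and adds no evidence. Per kb of transcript, Hnrnph1 made up 44.4% ± 1.21 of the group in control and 34.8% ± 1.15 in CDKO pools (SD, n = 3). The share of Hnrnph2 was 10.8% ± 0.570 and 15.95% ± 0.540, that of Hnrnpf 40.5% ± 1.73 and 46.5% ± 1.04, and that of Hnrnph3 4.22% ± 0.297 and 2.79% ± 0.0661. The Hnrnpf shares are uncertain, because 67.3% of its 50-base stretches also occur in other genes, and the order of Hnrnph1 and Hnrnpf in control pools is not settled by these values.

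The other Hnrnp genes that passed mostly rose. Hnrnpa2b1 (chr6:51460932-51469894), which encodes the A2 and B1 proteins and had the highest level per length of all 52 genes (483 CPM per kb in control pools), was 786, 831 and 792 CPM in control and 941, 934 and 918 CPM in CDKO pools. No pools overlapped (log2 difference 0.21, SE 0.04, limma adjusted p = 0.00055). Under quantile normalization the difference was 0.11 (limma adjusted p = 0.0132). Hnrnpc, whose tetramer packages long nascent transcripts, was 225, 216 and 232 CPM in control and 277, 281 and 282 CPM in CDKO pools, with the CDKO pools close together and all higher (log2 difference 0.32, SE 0.04, limma adjusted p = 4.77e-05). Hnrnpab, an A/B-type protein, was 485, 461 and 460.5 CPM in control and 618, 575 and 556 CPM in CDKO pools, also without overlap (log2 difference 0.31, SE 0.05, limma adjusted p = 0.00012). Hnrnpm, which binds GU-rich intronic sequence, was 487, 491 and 511 CPM in control and 607, 606 and 596 CPM in CDKO pools, and its groups were again apart (log2 difference 0.28, SE 0.04, limma adjusted p = 5.97e-05). Hnrnpd (AUF1, a factor of AU-rich mRNA decay), its relative Hnrnpdl and Hnrnpll (the regulator of Ptprc/CD45 exons) rose by log2 differences of 0.25 to 0.27 without overlap. Hnrnpu (SAF-A, a nuclear scaffold protein) was the member with the highest CPM, at 1285, 1282 and 1289 CPM in control and 1401, 1372 and 1436 CPM in CDKO pools. Its rise was small but free of overlap (log2 difference 0.13, SE 0.04, limma adjusted p = 0.013), and it was 0.07 under quantile normalization and 0.22 after correction for GC and length (limma adjusted p = 0.0344 and 0.000843).

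Hnrnpa3, a relative of A2/B1, fell, from 35.1, 34.5 and 37.7 CPM in control to 29.97, 29.4 and 31.4 CPM in CDKO pools. The groups did not overlap (log2 difference -0.23, SE 0.08, limma adjusted p = 0.0208), but the call was lost without control pool 3 or CDKO pool 2 (limma adjusted p 0.0602 to 0.0786). Hnrnpa1, which represses exons and competes with SR proteins, was 11.1, 10.9 and 11.97 CPM in control and 10.3, 9.02 and 9.33 CPM in CDKO pools. Every CDKO pool lay below the controls, yet the difference did not pass (log2 difference -0.23, SE 0.12, limma adjusted p = 0.119). At 5.90 CPM per kb in control pools it stood far under Hnrnpa2b1, and 46.4% of the 50-base stretches of its transcript also occur in other annotated genes. Hnrnpk, a poly-C binding protein, was close to the threshold, with 495, 510.4 and 522 CPM in control and 535, 534 and 573 CPM in CDKO pools and no overlap (log2 difference 0.10, SE 0.04, limma adjusted p = 0.0506). Hnrnpk passed in several alternatives: TMM scaling (limma adjusted p = 0.026), edgeR (0.0239), DESeq2 (0.00179), a 10 CPM minimum (0.0441), the replicate block (0.0297), correction for GC and length (0.0486) and the omission of CDKO pool 1 (0.0464). Hnrnpa0 passed as higher after the GC and length correction (log2 difference 0.21, limma adjusted p = 0.0233) and without CDKO pool 2 (0.0379). Hnrnpr passed as higher after that correction (0.16, limma adjusted p = 0.0111) and with DESeq2 (adjusted p = 0.0471), and Hnrnpul1 as lower without CDKO pool 3 (limma adjusted p = 0.0198). As reported, these and the remaining Hnrnpl and Hnrnpul2 did not pass, with log2 differences from -0.12 to 0.12.

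Of the 9 Sf3 genes, 4 rose, 3 fell and 2 did not pass (77.8% called, beside 66.3% of all tested genes). The SF3a complex, a heterotrimer that matures the U2 snRNP, split between its subunits. Sf3a3 (chr4:124714776-124732460) was 138, 136 and 126 CPM in control and 182, 174 and 184 CPM in CDKO pools. All CDKO pools lay higher, by 35.5% in the mean (log2 difference 0.44, SE 0.05, limma adjusted p = 1.84e-05). Sf3a1 (chr11:4160350-4182541), the largest subunit, was 260.002, 242 and 249 CPM in control and 218, 205 and 215 CPM in CDKO pools. All CDKO pools lay lower (log2 difference -0.23, SE 0.04, limma adjusted p = 0.000735). Sf3a2, a zinc finger subunit, was 54.1, 53.9 and 54.5 CPM in control and 67.98, 58.8 and 72.5 CPM in CDKO pools, higher without overlap and most variable in the CDKO group (log2 difference 0.28, SE 0.08, limma adjusted p = 0.00635). The ratio of Sf3a3 to Sf3a1 CPM was 0.532 ± 0.0289 (SD, n = 3) in control and 0.848 ± 0.0105 in CDKO pools. Per kb of transcript, Sf3a3 made up 49.2% ± 1.29 of the 3 genes in control and 57.5% ± 0.723 in CDKO pools, and Sf3a1 34.3% ± 0.994 and 25.1% ± 0.461.

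In the SF3b complex Sf3b1 and Sf3b3 fell, while Sf3b2 and Sf3b4 did not pass. Sf3b1 (chr1:54985169-55027481), the HEAT-repeat protein that clamps the branch point helix, was 569.9, 583 and 557 CPM in control and 502, 481 and 487 CPM in CDKO pools. The CDKO pools lay below throughout, a fall of 14.1% (log2 difference -0.22, SE 0.04, limma adjusted p = 0.000432). Sf3b3 (chr8:110810239-110846787), the beta-propeller protein beside it, was 487, 473 and 436 CPM in control and 391, 412 and 385 CPM in CDKO pools, also without overlap (log2 difference -0.23, SE 0.05, limma adjusted p = 0.00137). After correction for GC and length the difference was -0.14 for Sf3b1 (limma adjusted p = 0.0155) and -0.14 for Sf3a1 (limma adjusted p = 0.0295). The small subunits Sf3b6 (p14, which touches the branch point) and Sf3b5 rose by 11.4% and 11.4% (log2 differences 0.16 and 0.16, limma adjusted p = 0.0335 and 0.0478). Their groups did not overlap, but the Sf3b6 call was lost when any single pool other than control pool 3 was left out (limma adjusted p 0.0613 to 0.135) and with no filter (0.0502). The Sf3b5 call was lost without control pool 1 or 2 or CDKO pool 2 or 3 (limma adjusted p 0.0592 to 0.195), with the replicate block (0.0512) and with no filter (0.0648). Leaving out 1 of control pools 1 and 2 or CDKO pools 2 and 3 therefore cut the rises in the family from 4 to 2. Sf3b2, with the highest level per length of the family (142 CPM per kb), was 469, 453 and 456 CPM in control and 468, 477 and 489 CPM in CDKO pools. It overlapped and did not pass (log2 difference 0.06, SE 0.04, limma adjusted p = 0.199), but it passed as higher after the correction for GC and length (0.15, limma adjusted p = 0.00792) and with DESeq2 (0.07, adjusted p = 0.0474). Sf3b4 did not pass (0.07, limma adjusted p = 0.385).

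Among the Snrp genes 7 rose, 2 fell, 2 did not pass and Snrpn was not tested. That is 81.8% of only 11 tested genes, beside 66.3% of all tested genes (31.1% higher and 35.2% lower). The Sm ring genes rose or did not pass, and their sum was 749.8 to 803 CPM in control and 879.5 to 891 CPM in CDKO pools, a CDKO mean 13.5% higher. Snrpd3 (chr10:75517551-75537381) was 132, 128 and 139.7 CPM in control and 179, 169 and 167 CPM in CDKO pools. Its CDKO pools lay well clear of the controls (log2 difference 0.36, SE 0.05, limma adjusted p = 7.18e-05). Snrpf (chr10:93583029-93589706) was 11.7, 9.24 and 11.1 CPM in control and 14.7, 14.1 and 14.9 CPM in CDKO pools, without overlap (log2 difference 0.42, SE 0.12, limma adjusted p = 0.0105). Snrpd1 was 89.1, 84.8 and 88.5 CPM in control and 108, 106 and 103 CPM in CDKO pools, all CDKO pools higher (log2 difference 0.27, SE 0.05, limma adjusted p = 0.000531). Snrpd2 and Snrpe rose by less (log2 differences 0.19 and 0.15, limma adjusted p = 0.014 and 0.0353), likewise without overlap. The Snrpd2 call was lost without control pool 2 or CDKO pool 1 (limma adjusted p 0.055 to 0.0603), and the Snrpe call when any single pool other than CDKO pool 2 was left out (limma adjusted p 0.0586 to 0.104).

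Snrpb, the Sm B protein and the Sm gene with the highest level per length (312 CPM per kb), was 378, 349 and 361 CPM in control and 377, 394 and 399.6 CPM in CDKO pools. Control pool 1 lay above CDKO pool 1, and the difference missed the threshold (log2 difference 0.11, SE 0.04, limma adjusted p = 0.052). It passed without control pool 1 or CDKO pool 1 (limma adjusted p 0.0274 to 0.0327), with TMM scaling (0.0313), edgeR (0.0349), DESeq2 (0.00819), a 10 CPM minimum (0.049) and the GC and length correction (0.0095). Its paralog Snrpn, an imprinted gene that replaces Snrpb in neurons, had 0 reads in all 6 pools, as had Snurf, with which it shares exons. Other annotated genes, Snurf among them, overlap 34.1% of the exonic bases of Snrpn. How reads in shared exons were counted is not given, so 0 reads do not show that the transcript was absent. Snrpg was 50.01, 43.7 and 45.7 CPM in control and 47.96, 44.5 and 46.1 CPM in CDKO pools. The groups overlapped fully (log2 difference -0.01, SE 0.07, limma adjusted p = 0.943), and the ratio of Snrpd3 to Snrpg was 2.88 ± 0.212 (SD, n = 3) in control and 3.72 ± 0.0872 in CDKO pools.

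Under the Snrp rule each of U1 and U2 has 2 particle-specific genes, and these moved apart. On U2, Snrpa1 (U2 A') was 111, 113 and 113 CPM in control and 93.6, 98.4 and 103 CPM in CDKO pools, lower without overlap (log2 difference -0.20, SE 0.05, limma adjusted p = 0.00538). Snrpb2 (U2 B''), its binding partner on the same snRNA loop, was 43.9, 42.6 and 45.6 CPM in control and 56.5, 52.4 and 53.2 CPM in CDKO pools, higher without overlap (log2 difference 0.29, SE 0.07, limma adjusted p = 0.00237). The ratio of Snrpb2 to Snrpa1 CPM was 0.392 ± 0.0136 (SD, n = 3) in control and 0.551 ± 0.0460 in CDKO pools. On U1, Snrpa, which binds a stem loop of the snRNA, was 88.7, 81.6 and 86.3 CPM in control and 75.4, 74.5 and 79.8 CPM in CDKO pools, and Snrpc, which contacts the 5′ splice site, stood at 3.89, 4.22 and 4.86 CPM and 6.66, 5.52 and 5.75 CPM. Snrpa was lower in every CDKO pool (log2 difference -0.16, SE 0.06, limma adjusted p = 0.0276) and Snrpc higher in every one (log2 difference 0.39, SE 0.14, limma adjusted p = 0.0319). A further U1 protein outside this rule, Snrnp70, fell without overlap, from a mean of 225 to 191 CPM (log2 difference -0.24, SE 0.05, limma adjusted p = 0.00086). The calls of Snrpa and Snrpc were both fragile. That of Snrpa was lost without control pool 1 or 3 or CDKO pool 1 or 2 (limma adjusted p 0.0659 to 0.0924) and after the GC and length correction (log2 difference -0.11, limma adjusted p = 0.0917). That of Snrpc was lost without control pool 1 or 2 or CDKO pool 1 (limma adjusted p 0.0789 to 0.102), with no filter (0.0591) and with edgeR (adjusted p = 0.056). Left out, control pool 2 reduced the rises among the Snrp genes from 7 to 4, and any of control pools 1 and 3 and CDKO pools 1 and 2 reduced the falls from 2 to 1.

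Calls were recomputed with other processing. Over 16 alternatives (other scalings, filters, pseudocounts, tests on recovered reads, a block on replicate number, each library left out, and a correction for GC and length), 17 of the 23 rises and 7 of the 11 falls kept their side of the threshold throughout. The falls were Srsf7, Hnrnph1, Hnrnph3, Sf3b1, Sf3b3, Sf3a1 and Snrpa1. Among the rises were Srsf2, Srsf9, Hnrnph2, Hnrnpc, Hnrnpab, Hnrnpm, Hnrnpa2b1, Sf3a2, Sf3a3, Snrpd1, Snrpd3, Snrpf and Snrpb2. Of the 17 genes that did not pass, 9 did not pass in any alternative, Srsf3, Hnrnpa1 and Snrpg among them. On recovered reads edgeR gave 25 rises and 10 falls among the members (64% of all genes called) and DESeq2 28 and 11 (69.3%), and the correction for GC and length gave 29 and 10 (67.5%). Leaving out control pool 3 lowered the falls among all members from 11 to 7 and those among Srsf genes from 3 to 1, and leaving out CDKO pool 1 also brought the latter to 1.

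Transcript length and GC content had close medians in genes that rose and fell, and exon number, control level and shared sequence differed more. The 23 genes that rose had a median transcript length of 2213 bases and 7 exons, and the 11 that fell 2288 bases and 10 exons. GC content had medians of 45.5% and 45.0%. Across the 51 tested genes, which share the same 6 libraries, Spearman's rho with the log2 difference was -0.18 for transcript length, -0.28 for exon number, 0.04 for GC content and 0.01 for the mean level. For length it was -0.06 over all tested genes with a length. Median control levels were 118 CPM for the genes that rose and 250.3 CPM for those that fell, and median shares of 50-base stretches found in other genes were 11.7% and 3.10%.

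Several members cannot be counted cleanly, because their sequence occurs elsewhere or another gene overlaps them. Of the 52 genes, 16 had over 25% of their 50-base stretches in another annotated gene. Hnrnpa3 had the largest share (90.97%, in 46 other genes of which 41 are pseudogenes), so reads can be split or lost there. Snrpf had 89.5%, and 85.4% of its exonic bases are overlapped by other genes, Ccdc38 on the opposite strand among them. Hnrnpf had 67.3% in 11 other genes, Srsf4 65.3% in Gm12992 on the opposite strand, Sf3b4 51.2% and Hnrnpa1 46.4% in 19 genes of which 18 are pseudogenes. Hnrnpk (40.6%) and Srsf2 (35.2%, mostly in the antisense Mettl23) followed. Next were Srsf3 (31.5%), Snrpa (31.1%), Hnrnpab (29%, with Phykpl over 29.1% of its exonic bases) and Hnrnpm (28.8%, in March2). The rest over 25% were Snrpe (28.4%), Srsf5 (27.85%), Snrpc (26.7%, in 141 other genes) and Snrpn (26.2%). The sources used here do not state whether counting used strand, so reads of a gene and its antisense partner cannot be told apart, and the values of these genes are uncertain to that extent. By contrast Srsf7, Hnrnph1, Sf3a1, Sf3a3, Sf3b1 and Sf3b3 each shared under 5% of their stretches.

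**Figure D4:**
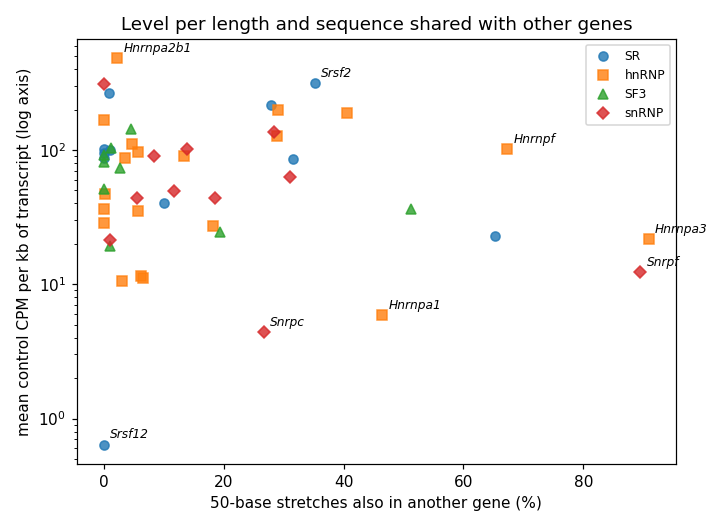
Each point is 1 tested splicing factor gene, with the percentage of its 50-base stretches that also occur in another gene on the horizontal axis and the mean control level in CPM per kb of transcript on a log vertical axis, marked by family. Hnrnpa3 and Snrpf lie at the far right, and Hnrnpa1 lies low with 46.4% shared.

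Other genes of the splicing machinery were read from 6 lists grouped by textbook role. Of 127 tested genes 40 were higher and 36 lower (59.8% called), beside 66.3% of all tested genes, 31.1% higher and 35.2% lower. The branch point and 3′ splice site list had 4 rises and 4 falls among 13 genes. Sf1, the branch point binding protein, fell from 366, 366 and 357 to 276, 286 and 272 CPM without overlap (log2 difference -0.38, SE 0.04, limma adjusted p = 8.17e-06). Zrsr1 fell most of the list, from 25.2, 18.5 and 22.1 to 6.30, 10.4 and 6.94 CPM (log2 difference -1.38, SE 0.18, limma adjusted p = 3.67e-05), and its relative Zrsr2, a minor spliceosome factor, from 49.3, 55.6 and 53.7 to 40.1, 38.8 and 37.6 CPM (log2 difference -0.43, SE 0.07, limma adjusted p = 0.00025). Ddx46, a helicase of the early U2 complex, rose from a mean of 208 to 271 CPM (log2 difference 0.38, SE 0.05, limma adjusted p = 7.85e-05). U2af1, the reader of the 3′ splice site AG, was 15.7, 18.8 and 16.95 CPM in control and 21.9, 18.6 and 19.1 CPM in CDKO pools, with overlap and no call (log2 difference 0.20, SE 0.11, limma adjusted p = 0.139).

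The list for the U1, U4, U5 and U6 particles had 8 rises and 10 falls among 31 genes. These counts include the minor spliceosome proteins Snrnp25 (a rise), Snrnp48 (a fall) and Snrnp35 (not called). The U1-associated Luc7l and Luc7l3 fell, from means of 247 to 185 CPM (log2 difference -0.42, SE 0.05, limma adjusted p = 2.21e-05) and of 313 to 238 CPM (log2 difference -0.39, SE 0.04, limma adjusted p = 1.33e-05). Sart3, which recycles U4 and U6, rose from 123, 123 and 123 to 169, 171 and 167 CPM (log2 difference 0.45, SE 0.04, limma adjusted p = 4.21e-06). Factors of catalytic activation and release had 8 rises and 5 falls among 22 genes. Isy1 rose the most of the list by log2 difference, from 56.9, 64.6 and 67.4 to 126, 117 and 117 CPM (log2 difference 0.92, SE 0.07, limma adjusted p = 9.10e-07), and its complex partner Aqr rose from a mean of 151 to 225 CPM (log2 difference 0.57, SE 0.06, limma adjusted p = 7.14e-06). Crnkl1, another protein of that stage, fell from 90.7 to 69.4 CPM in the mean (log2 difference -0.38, SE 0.05, limma adjusted p = 7.43e-05).

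The list of SR protein kinases and SR-related proteins had 4 rises and 6 falls among 19 genes, and 2 rises without control pool 1 or without CDKO pool 1. Clk1, a kinase that phosphorylates SR proteins in the nucleus, fell from 204, 219.8 and 218 to 146, 157 and 149.8 CPM (log2 difference -0.50, SE 0.05, limma adjusted p = 5.43e-06). Tnpo3, the import receptor of SR proteins, fell from a mean of 242 to 193 CPM (log2 difference -0.33, SE 0.04, limma adjusted p = 6.08e-05), and Rbm39, an SR-like U2AF relative, from 658 to 536 CPM (log2 difference -0.30, SE 0.04, limma adjusted p = 7.47e-05). In the snRNP assembly list, with 3 rises and 4 falls among 15 genes, Prmt5, which methylates Sm proteins, rose from a mean of 117 to 154 CPM (log2 difference 0.39, SE 0.05, limma adjusted p = 8.01e-05). Strap, an SMN-complex protein, rose from 155 to 209 CPM (log2 difference 0.43, SE 0.04, limma adjusted p = 6.64e-06), while Gemin5, which recognises snRNA for Sm ring loading, fell from 129 to 93.5 CPM (log2 difference -0.45, SE 0.07, limma adjusted p = 0.000114). Other regulators of splice choice had 13 rises and 7 falls among 27 tested genes (4 falls without control pool 3), with Esrp1 not tested. Ptbp1, the polypyrimidine tract repressor, rose from 295, 297 and 289 to 393, 373 and 368 CPM (log2 difference 0.36, SE 0.04, limma adjusted p = 1.50e-05). Tardbp (TDP-43) rose from a mean of 241 to 297 CPM (log2 difference 0.30, SE 0.04, limma adjusted p = 0.000122), and Tia1, which binds U-rich sequence beside 5′ splice sites, fell from 193 to 145 CPM (log2 difference -0.41, SE 0.04, limma adjusted p = 1.33e-05).

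**Figure D5:**
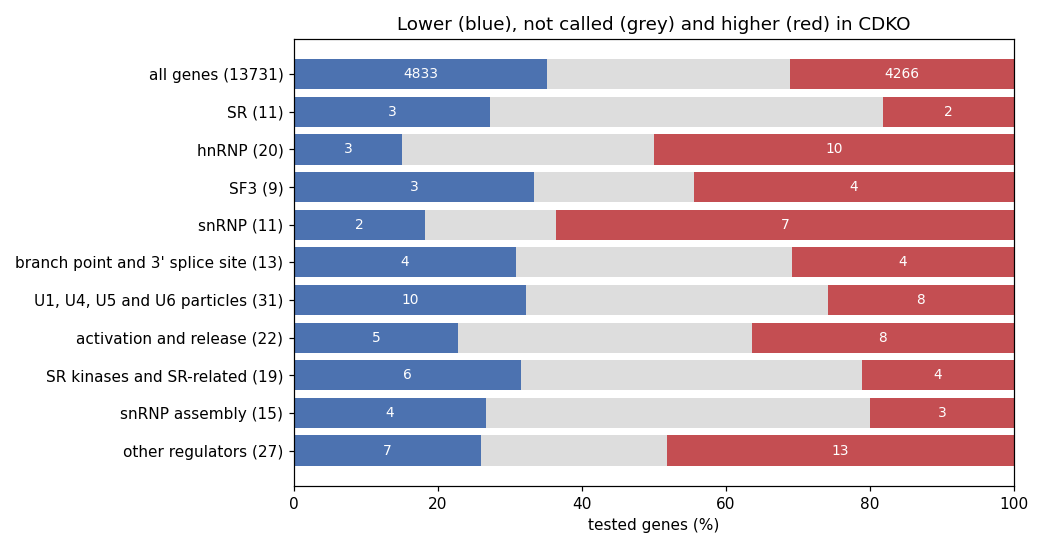
Bars give the percentage of tested genes (horizontal axis) that were lower (blue), not called (grey) or higher (red) in CDKO pools, with the number of genes written in the coloured parts and the number tested after each name, for all genes, the 4 families and the 6 lists. The snRNP and hnRNP bars hold 7 and 10 rises against 2 and 3 falls, and the SR bar 2 against 3.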

How the data were processed

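RNA from 3 control and 3 CDKO pools of sorted HSC was amplified and sequenced, per the labels' protocols. TopHat2, HTSeq and DESeq2 with the build mm10 are named, without versions, per the submitters' processing notes. The annotation, filters and use of strand are not given in the sources used here. Per the file headers, 1 deposited table holds every gene. Its CPM values per library are deposited counts scaled to 1000000, and dividing by each library's step gave whole reads for 99.9989% of values above 0 (tolerance 0.01 read), with totals of 32863805 to 42772261 reads. The deposited baseMean is a signal, the mean of the authors' scaled counts. On a log2 scale are the deposited fold change, which sets control over CDKO and was turned in sign, and its error. The deposited stat column is a score, fold change over its error. The p-value columns were deposited by the authors from DESeq2, and only a count of their calls is given.

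Genes with a mean of at least 0.25 CPM were tested as CDKO minus control in limma (version 3.58.1, R 4.3.3) on log2(CPM + 1), using a mean-variance trend and no covariate, two-sided, at a Benjamini-Hochberg adjusted p of 0.05 over all 13731 tested genes. A log2 difference on this scale understates changes of low genes. Of the listed rows, 12 have a date where the symbol should be and were left out, 2 share a symbol, and 7104 genes had 0 reads in every library. Transcript length, exons, GC content, overlaps and shared 50-base stretches came from the GENCODE M21 annotation and the GRCm38 genome, for 1 representative transcript per gene, and CPM per kb uses that length. The Hnrnpr transcript chosen this way is 21452 bases long, which lowers its level per kb. Promoters are RefSeq windows of GRCm38.p6.

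The members and lists were chosen with earlier results of these data known, so no p is given over any list. Named in full are, per family, the highest member per kb, up to 4 members higher and 4 lower with the smallest p, and Srsf2, Sf3b1, Snrpb, Snrpn, Hnrnpa1, Hnrnpa2b1, Srsf3 and Srsf7, and up to 3 genes per list of other splicing genes with U2af1 and Zrsr2. Other members are named so that all 52 are accounted for. Alternatives were TMM and quantile scaling, recovered reads in edgeR 4.0.16 and in DESeq2 1.42.0, pseudocounts of 0.5 and 5 CPM, no filter, a minimum of 10 CPM, a block on replicate number, each library left out, a loess correction for GC and length, and a 1.5-fold minimum. The fits were tested on simulated data of 13731 genes at these depths, with few genes changed and these drawn at any tested level. There limma recovered 16.4% of genes changed by 1.2-fold, 61.6% at 1.5-fold and 82.8% at 2-fold, and called 0.0724% of unchanged genes.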

Additional observations from a re-analysis of the deposited data

How the results depend on the processing

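Among the 51 tested splicing factor genes, 16 alternatives gave 17 to 29 rises and 7 to 12 falls (23 and 11 as reported), and the signed median stayed between 0.08 and 0.14. With a 1.5-fold minimum, rises and falls over all genes were 1645 and 2354, and over the members 0 and 2. By family they were then 0 and 1 for Srsf, 0 and 1 for Hnrnp, 0 and 0 for Sf3, and 0 and 0 for Snrp genes. By list they were 0 and 1 for the branch point, 0 and 1 for the U1, U4, U5 and U6 particles, 1 and 0 for activation and release, 0 and 0 for SR kinases, 0 and 0 for snRNP assembly, and 2 and 0 for other regulators. Without a filter Sf3 rises were 2 and SR kinase rises 2, the latter also 2 under quantile normalization. With DESeq2, activation and release had 13 rises and SR kinases 7. After the GC and length correction, SR kinase rises were 7, Snrp falls 1 and falls of other regulators 4. The causes were not tested.

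With 1 library left out at a time, member rises ranged from 17 (without control pool 2) to 22 and falls from 7 (without control pool 3) to 12. Srsf falls ranged from 1 to 3, Sf3 rises from 2 to 4, Snrp rises from 4 to 7 and Snrp falls from 1 to 2. SR kinase rises ranged from 2 to 4 and falls of other regulators from 4 to 7. The Srsf3 difference, -0.0021 as reported and with an adjusted p of at least 0.55 in each alternative, turned to 0.0122 with TMM, 0.0120 with edgeR, 0.0124 with DESeq2, 0.0169 after the GC and length correction, 0.0364 without control pool 1, 0.00048 without CDKO pool 2 and 0.0309 without CDKO pool 3, and ranged from -0.0376 to 0.0364 with 1 library left out. Of the 50 genes under the naming rule, 40 kept both their side of the threshold and the sign of their difference throughout. Srsf3 is not among these 40, since it kept its side but changed sign.

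The replicate numbers are not said to pair pools, and the correlations of deviations between same-numbered pools were 0.0510, 0.0488 and -0.0118. With the replicate block, the members had 23 rises and 11 falls, and all genes 4350 and 4898. Among the members the block ended the Sf3b5 call (limma adjusted p = 0.0512) and added Hnrnpk (limma adjusted p = 0.0297), and it changed no other member's call. In simulated data with few changed genes, limma recovered 16.4% of changes of 1.2-fold, a size near the median among the members. In the real data 66.3% of all tested genes were called, which makes the adjusted threshold less strict. The simulated share therefore does not give the power for the members. With 3 pools per group, a gene that did not pass is still not shown to be unchanged.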
